A study of Mus musculus with 6 samples.

Results

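The genes described here are 10 chemokine ligands, namely the CXC chemokines Cxcl1, Cxcl2, Cxcl5, Cxcl9, Cxcl10, Cxcl12, Cxcl13, Cxcl14 and Cxcl16 together with Cx3cl1. They were chosen by gene symbol and make up 10 of the 24035 named genes of the deposited table. RNA was sequenced from glomeruli, the filtering units of the kidney, taken from FVB/N mice after perfusion with iron oxide and collagenase digestion, and collected with a magnet. The 3 Knockout libraries came from mice with the genotype Podocin-Cre Klf4 fl/fl, in which Cre is driven by the podocin promoter, active in podocytes. The 3 Control libraries came from mice with the genotype Klf4 fl/fl, so both groups carry floxed Klf4 alleles and no group carried Cre alone. The sources used here give no age and do not say that each library is a separate animal, so p-values measure only library-to-library spread, which may be technical. In whole glomeruli a change in the number of cells of a type cannot be told apart from a change in RNA per cell.

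Chemokines are small proteins that guide leukocytes and other cells through G protein-coupled receptors. CXCL1, CXCL2 and CXCL5 act mainly on CXCR2 of neutrophils and are typical targets of NF-kB signalling, while CXCL9 and CXCL10 are induced by interferons and act on CXCR3 of T and NK cells. CXCL16 and CX3CL1 (fractalkine) are made as transmembrane proteins that hold cells bearing CXCR6 or CX3CR1 to a surface and can be shed by proteases. CXCL12, CXCL13 and CXCL14 are usually described as homeostatic, made by tissue cells without an inflammatory stimulus. In the glomerulus, podocytes are known as a source of CXCL12 and endothelial cells as a source of CX3CL1.

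Of the 10 chemokine genes, 5 were higher in Knockout than in Control glomeruli: Cxcl1, Cxcl2, Cxcl10, Cxcl16 and Cx3cl1. Their folds ran from 1.79 for Cx3cl1 to 11.7 for Cxcl10. Cxcl12, Cxcl13 and Cxcl14 were tested and did not pass, and Cxcl5 and Cxcl9 lay under the filter of a mean of 0.5 RPKM (reads per kilobase of gene, scaled to the counted reads of the library). No chemokine of the 10 was lower by limma, the count being 0 also at an unadjusted p under 0.05 and 0 by voom, against 6 higher unadjusted and 5 higher by voom. Among all 13912 tested genes, 9.98% were called higher and 3.48% lower at an adjusted p under 0.05. The median log2 change of the 8 tested chemokines was 1.71, against 0.097 over all tested genes. In 9 of the 10 genes every Knockout library lay above every Control library, as it did for 7 of the 8 tested ones, whereas 23.7% of all tested genes showed this.

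**Figure D1:**
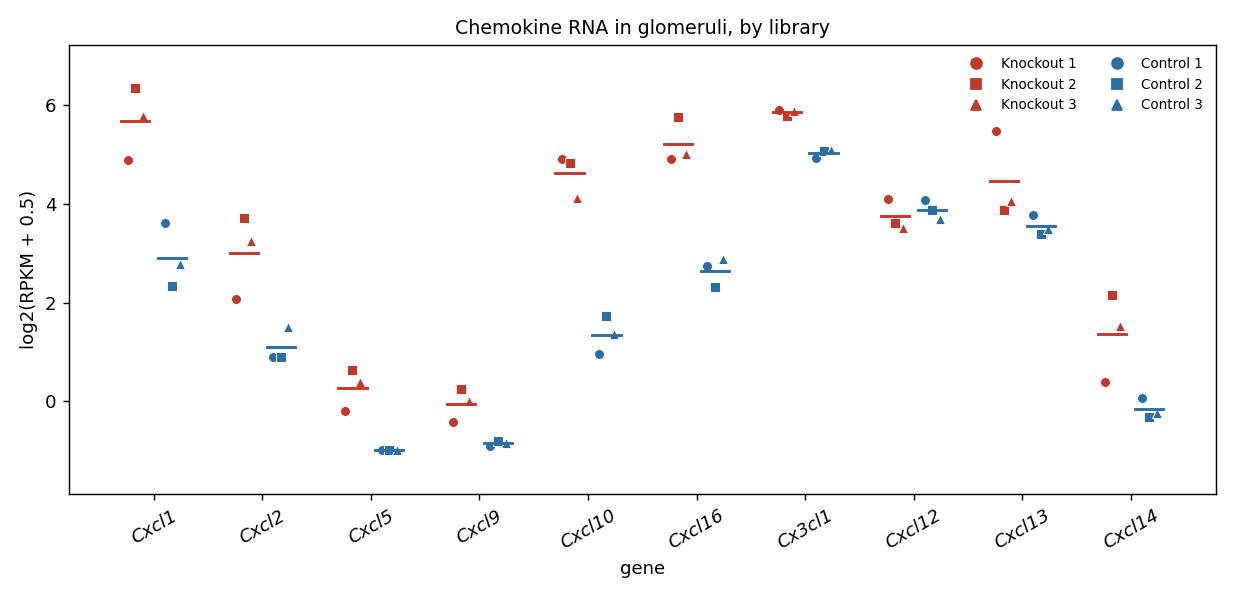
Level of the 10 chemokine genes in each library as log2(RPKM + 0.5), with Knockout libraries in red and Control libraries in blue. Symbols mark the replicate number and horizontal lines the group means. The groups overlap for Cxcl12 and are apart for the other 9 genes.

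Libraries of the same group correlated at 0.969 to 0.981 over log2 values and libraries of different groups at 0.891 to 0.949. Counted reads ran from 40751014 to 58272424 in Knockout and from 38936993 to 52544110 in Control libraries. Klf4, the floxed transcription factor gene, stood at 29.4, 40.3 and 41.4 RPKM in Knockout libraries 1 to 3, against 21.5, 44.3 and 49.8 RPKM in Control libraries 1 to 3. Its log2 change was 0.015 (limma adjusted p = 0.979, exact permutation p = 1, where 0.1 is the smallest possible), and its sign turned under quantile and median-ratio scaling and when Knockout replicate 2 or 3 or Control replicate 1 was left out. Other glomerular cells keep Klf4 and the sources used here do not name the deleted exons, so this value does not check the labels. As a check of the tissue, the podocyte markers had summed levels of 967 to 2418 RPKM in Knockout and 3284 to 6324 RPKM in Control libraries, with 8 of 12 lower, or 5 when Control replicate 1 or 2 was left out. Under quantile normalization the calls over all genes split into 849 higher and 798 lower, in place of 1389 and 484, and the median of all genes moved to −0.048.

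**Figure D2:**
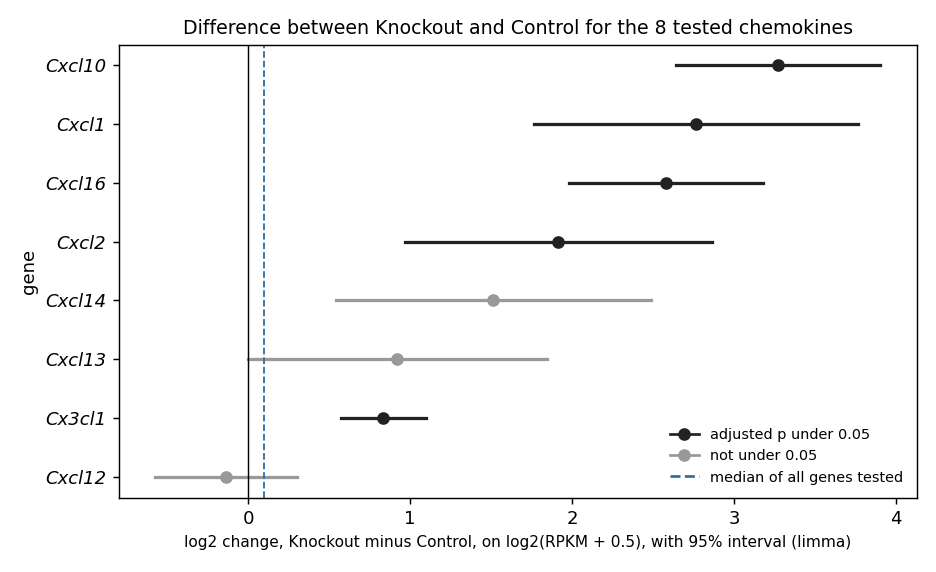
Log2 change (Knockout minus Control, on the scale of log2(RPKM + 0.5)) of the 8 tested chemokine genes, with 95% intervals from limma on the x axis. Black marks genes with an adjusted p under 0.05, grey the other 3, and the dashed line is the median of all tested genes, 0.097.

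Among the neutrophil-attracting ligands Cxcl1 and Cxcl2 were higher in Knockout glomeruli, and Cxcl5 had reads in Knockout libraries only. Cxcl1 (chromosome 5, 90891245 to 90893121 on GRCm38.p6), an early ligand of CXCR2, had 29.0, 81.1 and 54.9 RPKM in Knockout libraries 1 to 3, against 11.8, 4.53 and 6.39 RPKM in Control libraries 1 to 3. The lowest Knockout library lay above the highest Control library. Knockout library 2 was the highest of its group and Control library 2 the lowest of its group. Mean levels were 55.0 ± 26.0 RPKM in Knockout and 7.56 ± 3.76 RPKM in Control glomeruli (SD, n = 3 each), a 7.27-fold difference. The log2 change was 2.76 (SE 0.43, 95% interval 1.76 to 3.76, limma adjusted p = 0.00901). It kept its call under all 15 alternatives, with adjusted p from 0.00593 to 0.0430.

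Cxcl2 (chromosome 5, 90903899 to 90905938), which shares the receptor CXCR2, had 3.73, 12.6 and 9.0 RPKM in Knockout libraries 1 to 3. Control libraries 1 to 3 had 1.36, 1.35 and 2.35 RPKM. The groups did not overlap, and Knockout library 1 was the nearest to the Control values, as it was for Cxcl1. Means of 8.44 ± 4.45 RPKM in Knockout and 1.69 ± 0.571 RPKM in Control glomeruli (SD, n = 3 each) differed 5.00-fold. On the log2 scale the change was 1.91 (SE 0.41, 95% interval 0.97 to 2.86, limma adjusted p = 0.0244). The call was lost with no filter (adjusted p = 0.0529) and when Knockout replicate 2 (0.0787), Control replicate 1 (0.0717) or Control replicate 2 (0.0669) was left out. Of the 31-base words of Cxcl2 transcripts, 7.59% also occur in Cxcl3, so a small part of its reads could be split between them.

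Cxcl5 (chromosome 5, 90759298 to 90761625), an epithelial ligand of the same receptor, had 28, 71 and 78 reads in Knockout libraries 1 to 3 and 0, 0 and 0 reads in Control libraries 1 to 3. In RPKM the Knockout libraries stood at 0.374, 1.05 and 0.808. Against a floor of 3 reads summed over the Control group, Cxcl5 was at least 54.0-fold higher in Knockout glomeruli. When all genes were tested with no filter its limma adjusted p was 0.0226. That call was lost without any 1 of the 3 Control libraries and without Knockout replicate 2 or 3, with adjusted p from 0.0672 to 0.0892.

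For neutrophils, the main cells with CXCR2, the summed level of the markers was 5.03, 28.2 and 22.5 RPKM in Knockout libraries 1 to 3. Control libraries 1 to 3 had 27.0, 51.5 and 38.1 RPKM. Ly6g had no entry under that symbol and is not in this sum. S100a8, a calcium-binding protein abundant in neutrophils, had 0.789, 7.70 and 4.99 RPKM in Knockout and 8.72, 16.7 and 13.7 RPKM in Control libraries, which did not overlap but did not pass (log2 change −1.76, limma adjusted p = 0.110). Cxcr2 itself had 13, 37 and 92 reads in Knockout and 44, 113 and 33 reads in Control libraries, with overlapping groups. Of the 5 tested neutrophil markers 1 was higher and 0 lower by limma (2 lower at an unadjusted p under 0.05, 0 by voom). The higher one was Itgam, an integrin chain that macrophages also carry (log2 change 1.56, adjusted p = 0.0402), and its call was lost under 6 of 14 alternatives, among them leaving out Knockout replicate 2 or 3 or Control replicate 1 or 3.

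The upstream sequences of Cxcl1, Cxcl2 and Cxcl10 are shown because these were the chemokine genes, among the 8 with an entry in the promoter table, whose windows held a kappaB match, the kind of site bound by NF-kB. They are the 250 bases before the RefSeq start on GRCm38.p6, at chr5:90890995-90891244 on the plus strand, chr5:90903649-90903898 on the plus strand and chr5:92348890-92349139 on the minus strand, written 5′ to 3′ along the gene. Capitals mark kappaB matches and, in Cxcl10 only, also the interferon response core read on the opposite strand as AAAGTGAAA.
Cxcl1: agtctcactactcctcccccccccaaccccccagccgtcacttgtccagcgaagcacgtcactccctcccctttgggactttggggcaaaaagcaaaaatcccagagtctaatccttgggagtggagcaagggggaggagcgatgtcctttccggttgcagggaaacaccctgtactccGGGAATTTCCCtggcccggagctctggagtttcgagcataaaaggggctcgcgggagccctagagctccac
Cxcl2: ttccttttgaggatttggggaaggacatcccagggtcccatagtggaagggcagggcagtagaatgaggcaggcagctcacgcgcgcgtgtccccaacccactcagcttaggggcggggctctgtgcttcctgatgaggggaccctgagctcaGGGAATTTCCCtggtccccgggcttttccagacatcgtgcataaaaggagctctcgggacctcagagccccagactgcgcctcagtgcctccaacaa
Cxcl10: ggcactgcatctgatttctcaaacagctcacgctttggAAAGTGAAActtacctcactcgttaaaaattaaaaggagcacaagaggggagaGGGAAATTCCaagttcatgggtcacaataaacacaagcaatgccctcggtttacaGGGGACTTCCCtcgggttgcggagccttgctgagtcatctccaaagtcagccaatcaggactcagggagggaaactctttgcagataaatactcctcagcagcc

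Cxcl1 and Cxcl2 held the same 10 bases GGGAATTTCC, beginning 71 and 97 bases before the start, and each also matched on the opposite strand 1 base further on. Cxcl10 had kappaB matches beginning 159 and 104 bases before its start and the interferon response core 212 bases before it. Windows of 250 bases before to 50 after the start were searched on both strands. A kappaB match occurred in 3 of the 8 chemokine promoters and in 8.46% of all 32851 promoters in the RefSeq-based table. The interferon response core TTTCNNTTT occurred in 2 of 8 (Cxcl10 and Cxcl14) and in 10.6% of all promoters. The GAS motif TTCNNNGAA, an interferon-related element, occurred in 1 of 8 (Cxcl14, where it matched on both strands) and in 8.30%. The KLF-type box CACCC occurred in 4 of 8 (Cxcl1, Cxcl9, Cxcl12 and Cxcl14) and in 57.5%. Cxcl5 and Cxcl16 had no entry. Such matches describe letters only and do not show binding.

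Of the interferon-induced ligands, Cxcl10 was higher in Knockout glomeruli and Cxcl9 stayed low in both groups. Cxcl10 (chromosome 5, 92346638 to 92348889), a CXCR3 ligand that draws T and NK cells, had 29.6, 27.8 and 17.0 RPKM in Knockout libraries 1 to 3. Control libraries 1 to 3 had 1.43, 2.82 and 2.08 RPKM. The groups lay far apart, and here Knockout library 3 rather than library 1 was the lowest of its group. Means were 24.8 ± 6.81 RPKM in Knockout and 2.11 ± 0.695 RPKM in Control glomeruli (SD, n = 3 each), an 11.7-fold difference. The log2 change of 3.27 (SE 0.27, 95% interval 2.64 to 3.90, limma adjusted p = 0.00206) was the largest of the 8 tested chemokines in this fit. It kept its call under all 15 alternatives, with adjusted p up to 0.0126.

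Cxcl10 shares 133 of its 2252 exonic bases with Art3 on the opposite strand, and no source used here gives the strand setting of the counting. Art3, an ecto-ADP-ribosyltransferase gene, had 26.9, 15.5 and 26.0 RPKM in Knockout and 37.4, 53.5 and 47.1 RPKM in Control libraries. Its log2 change of −1.02 (limma adjusted p = 0.0321, 0.0294 to 0.0904 over the alternatives, lost on leaving out Knockout replicate 2 or Control replicate 2 or 3) had the opposite sign to that of Cxcl10.

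Cxcl9 (chromosome 5, 92321331 to 92328079), also a CXCR3 ligand, had 33, 81 and 84 reads in Knockout libraries 1 to 3 and 4, 11 and 6 reads in Control libraries 1 to 3. In RPKM these were 0.251, 0.684 and 0.496 in Knockout and 0.0339, 0.0721 and 0.0530 in Control libraries. The groups did not overlap and the means differed 9.0-fold, at levels under 1 RPKM in every library. Without a filter its log2 change was 0.80 (SE 0.16, limma adjusted p = 0.0394). The call was lost under 9 of 13 combinations of no filter with another setting, among them leaving out any 1 Control library or Knockout replicate 2 or 3.

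The membrane-bound ligands were both higher in Knockout glomeruli. Cxcl16 (chromosome 11, 70454389 to 70459984), a ligand of CXCR6 and a scavenger receptor for oxidized lipoprotein, had 29.4, 53.7 and 31.7 RPKM in Knockout libraries 1 to 3, against 6.22, 4.45 and 6.86 RPKM in Control libraries 1 to 3. Every Knockout library was more than 4 times as high as any Control library. Means of 38.3 ± 13.4 RPKM in Knockout and 5.84 ± 1.25 RPKM in Control glomeruli (SD, n = 3 each) gave a 6.55-fold difference. The log2 change was 2.58 (SE 0.26, 95% interval 1.98 to 3.18, limma adjusted p = 0.00241), and the call was kept under all 15 alternatives.

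Cxcl16 shares 552 of its 3021 exonic bases with Zmynd15, a zinc-finger gene on the opposite strand, and 18.5% of its 31-base words. Zmynd15 had 722, 1338 and 1574 reads in Knockout and 203, 173 and 126 reads in Control libraries, against 3259, 5359 and 4529 reads of Cxcl16 in Knockout and 619, 572 and 654 in Control libraries. Both were higher in Knockout (Zmynd15 log2 change 2.31, limma adjusted p = 0.00398), and without a stated strand setting their reads cannot be told apart in the shared bases.

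Cx3cl1 (chromosome 8, 94772180 to 94782427), the membrane-anchored ligand of CX3CR1, had 59.5, 54.9 and 58.9 RPKM in Knockout libraries 1 to 3. Control libraries 1 to 3 had 29.9, 33.2 and 33.6 RPKM. Both groups were tight and did not overlap. The difference was the smallest of the 5 called, at 57.8 ± 2.52 RPKM in Knockout and 32.2 ± 2.04 RPKM in Control glomeruli (SD, n = 3 each), or 1.79-fold. The log2 change was 0.83 (SE 0.11, 95% interval 0.57 to 1.09, limma adjusted p = 0.00580) and kept its call under all 15 alternatives. The 10 endothelial markers, of the cells known to make this ligand, had 0 called higher or lower by limma, with a median log2 change of −0.41 (1 higher and 5 lower at an unadjusted p under 0.05, 1 lower by voom and 1 lower when Knockout replicate 3 was left out).

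The homeostatic ligands did not pass the test. Cxcl12 (chromosome 6, 117168535 to 117181368), the ligand of CXCR4 and ACKR3, had 16.8, 11.7 and 11.0 RPKM in Knockout libraries 1 to 3, against 16.4, 14.2 and 12.5 RPKM in Control libraries 1 to 3. The groups overlapped over almost their whole range. The log2 change of −0.14 had a 95% interval of −0.58 to 0.30 (SE 0.19, limma adjusted p = 0.660), which leaves out rises of the size seen for the 5 called genes. Podocyte markers were lower in the same Knockout libraries, and their part in the level of Cxcl12 was not tested.

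Cxcl13 (chromosome 5, 95956939 to 95961068), the ligand of CXCR5 that draws B cells into follicles, had 44.4, 14.2 and 16.1 RPKM in Knockout libraries 1 to 3. Control libraries 1 to 3 had 13.2, 9.99 and 10.8 RPKM. Knockout library 1 stood far above the other 2, which lay just above the highest Control library. The log2 change was 0.92 (SE 0.40, 95% interval −0.0038 to 1.84, limma adjusted p = 0.165), and without Knockout replicate 1 it was 0.41 (adjusted p = 0.204). B cell markers had summed levels of 2.59 to 3.46 RPKM in Knockout and 2.35 to 3.15 RPKM in Control libraries, with 0 of 2 tested called by limma (1 higher and 1 lower unadjusted, 0 by voom).

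Cxcl14 (chromosome 13, 56288643 to 56296811), an epithelial chemokine whose receptor is not settled, had 0.810, 3.94 and 2.38 RPKM in Knockout libraries 1 to 3, against 0.552, 0.302 and 0.351 RPKM in Control libraries 1 to 3. The groups did not overlap, but Knockout library 1 lay close to Control library 1. The means differed 5.91-fold. The log2 change of 1.51 (SE 0.42, 95% interval 0.54 to 2.49) missed the threshold (limma adjusted p = 0.0536). It passed with a pseudocount of 0.1 (adjusted p = 0.0442) and without Knockout replicate 1 (0.00793).

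The RNA of the 10 chemokines together made up 214, 262 and 202 RPKM in Knockout libraries 1 to 3, against 80.8, 70.9 and 75.0 RPKM in Control libraries 1 to 3. This sum was higher in every Knockout library, and its make-up differed too. Cx3cl1 held 26.0% ± 4.38 of the sum in Knockout and 42.9% ± 5.18 in Control libraries (SD, n = 3 each), although its own level was higher in Knockout. Cxcl12 held 5.92% ± 1.73 in Knockout and 19.0% ± 2.01 in Control libraries. Cxcl1 held 23.9% ± 9.15 in Knockout and 9.82% ± 4.24 in Control libraries, and Cxcl10 held 10.9% ± 2.73 in Knockout and 2.84% ± 1.11 in Control libraries. These shares follow from the levels above and were not tested.

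**Figure D3:**
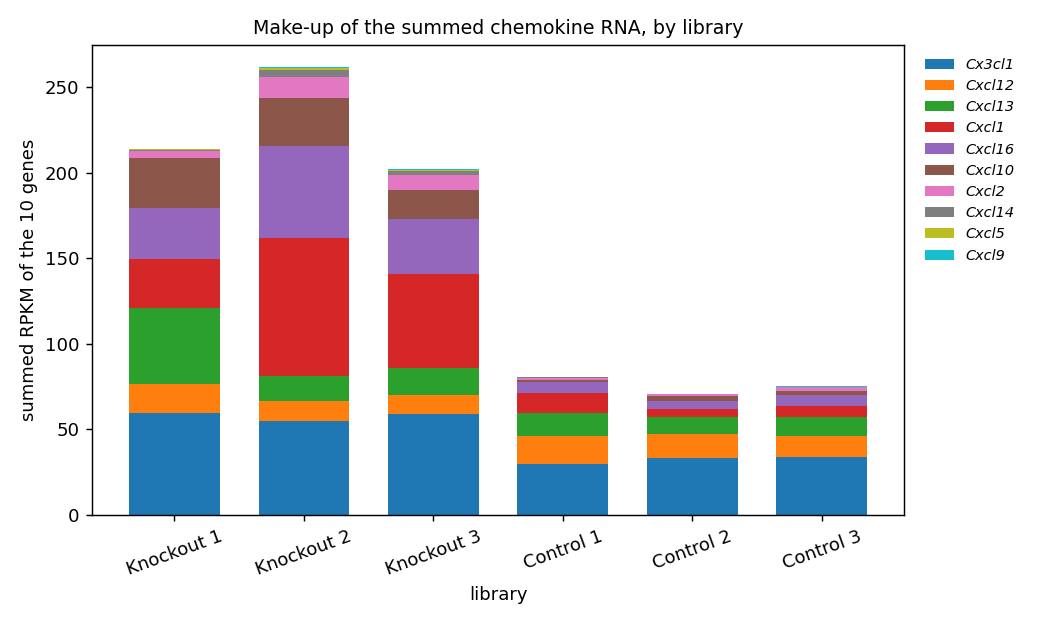
Summed RPKM of the 10 chemokine genes in each library, with Knockout on the left and Control on the right and each bar split by gene. The Knockout bars reach 202 to 262 RPKM and the Control bars 70.9 to 80.8 RPKM.

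RPKM is scaled by gene length, so levels can be ranked between genes. In Knockout glomeruli the order was Cx3cl1, Cxcl1, Cxcl16, Cxcl13, Cxcl10, Cxcl12, Cxcl2, Cxcl14, Cxcl5 and Cxcl9. Each overlapped the next except Cxcl10, whose lowest value (17.0 RPKM) lay just above the highest of Cxcl12 (16.8 RPKM). Cxcl13 did overlap Cxcl12, so the upper genes were not set apart as a group. In Control glomeruli Cx3cl1 stood alone at the top, and Cxcl12, Cxcl13, Cxcl1 and Cxcl16 followed with overlapping neighbours. Below a gap came Cxcl10 and Cxcl2, which overlapped, and then Cxcl14, Cxcl9 and Cxcl5, each apart from its neighbours. Cxcl1 exceeded 94.5% of the 24035 named genes, those at 0 included, in its mean Knockout level and 66.8% in its mean Control level, while Cxcl12 exceeded 74.3% in Knockout and 76.9% in Control.

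Not all 10 genes were highest in the same Knockout library. Library 2 held the highest value of 6 of them (Cxcl1, Cxcl2, Cxcl5, Cxcl9, Cxcl14 and Cxcl16) and library 1 that of the other 4 (Cxcl10, Cxcl12, Cxcl13 and Cx3cl1). Summed macrophage markers were also highest in library 2, with 155, 316 and 291 RPKM in Knockout libraries 1 to 3. Control libraries had 133 to 216 RPKM. Within that list Mrc1, Mertk, Aif1 and Fcgr1 were instead highest in library 3. Adgre1, a further macrophage marker, had no entry under that symbol. Of the 11 tested macrophage markers 7 were higher, among them Cd68, the lysosomal glycoprotein (log2 change 2.01, limma adjusted p = 0.00428), and the complement genes C1qb and C1qc (3.67 and 3.59). The lower one was Mrc1, a mannose receptor (−1.04, adjusted p = 0.0423). This call was lost under 8 of 15 alternatives. Among them were the 4 fits without Knockout replicate 1 or 2 or Control replicate 2 or 3. Mertk was also lower at an unadjusted p under 0.05 (−0.96, limma adjusted p = 0.123). Without Knockout replicate 2 the count of higher macrophage markers was 4, and without Knockout replicate 3 the count of lower ones was 2. Parietal epithelial markers summed to 309, 562 and 314 RPKM in Knockout and 83.3 to 99.8 RPKM in Control libraries. Of these 10 markers 8 were higher, including Cd44 (4.29, adjusted p = 0.00206), a hyaluronan receptor. Ncam1 of the same list was lower at an unadjusted p under 0.05 (−0.62, limma adjusted p = 0.132). Quantile normalization called 1 of these markers lower. Distal tubule and collecting duct markers reached 1003 to 2660 RPKM in Knockout and 442 to 1227 RPKM in Control libraries, with 0 of 10 called by limma (5 higher unadjusted, 0 by voom) but 6 higher without Knockout replicate 3. Proximal tubule markers summed to 9494, 4907 and 3791 RPKM in Knockout libraries 1 to 3, highest in library 1. Control libraries 1 to 3 had 7496, 4137 and 10657 RPKM. Among all tested genes 9.98% were called higher and 3.48% lower. Of the marker lists not yet counted, 2 of 4 dendritic, 3 of 5 fibroblast, 1 of 9 mesangial, 1 of 10 proximal tubule and 0 of 4 platelet markers were higher. In these lists 1 fibroblast, 3 mesangial and 1 platelet marker were lower. When 1 library was left out, these counts ran over 1 to 2 dendritic, 2 to 3 fibroblast, and 0 to 1 mesangial, proximal tubule and platelet markers higher, and 0 to 1 fibroblast, 0 to 3 mesangial and 0 to 1 platelet and proximal tubule markers lower. Each of these ranges had its lowest count in the fit that left out Knockout replicate 2. For fibroblast and proximal tubule markers higher and mesangial markers lower, no other such fit went as low. Platelet markers higher and proximal tubule markers lower were at 0 in the main fit already. The part of these cell types in the chemokine levels was not tested.

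The other CXC ligands of the mouse were mostly low. Cxcl11, an interferon-induced gene annotated in RefSeq as a transcribed pseudogene, had 4.46, 4.18 and 2.46 RPKM in Knockout libraries 1 to 3, against 0.322, 0.214 and 0.112 RPKM in Control libraries 1 to 3. Its order over the Knockout libraries was that of its neighbour Cxcl10, and its log2 change was 2.53 (SE 0.25, limma adjusted p = 0.00241), kept wherever it was tested. Cxcl17, a mucosal chemokine-like gene, had 45, 95 and 30 reads in Knockout and 0, 2 and 0 reads in Control libraries (log2 change 1.93, adjusted p = 0.0192). Leaving out Control replicate 1 or 3 ended this call. Cxcl3, a further CXCR2 ligand, had 5, 54 and 43 reads in Knockout and 0, 0 and 0 in Control libraries, or at least 31.1-fold more in Knockout against 3 reads over the Control group. The platelet chemokines Pf4 (1.14, adjusted p = 0.0582) and Ppbp (−0.05, adjusted p = 0.950) did not pass, and Cxcl15 had 1 read in all. Of the 6 other ligands, 4 were tested and 2 were higher.

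Most of the inducible ligands lie on chromosome 5. Cxcl5, Ppbp, Pf4, Cxcl3, Cxcl15, Cxcl1 and Cxcl2 follow one another there, Cxcl1 and Cxcl2 with 10777 bases between them. Cxcl9, Cxcl10 and Cxcl11 form a second group 1415392 bases further on, and Cxcl13 lies 3593642 bases beyond it. Within the first group Cxcl1, Cxcl2, Cxcl3, Cxcl5, Pf4 and Ppbp shared the order Knockout library 2, then 3, then 1. In the second group Cxcl10 and Cxcl11 had the order 1, then 2, then 3, whereas Cxcl9, the gene next to Cxcl10, had the order 2, then 3, then 1. Cxcl14 (chromosome 13), Cxcl16 (chromosome 11) and the macrophage marker Cd68 also had the order 2, then 3, then 1. That order was thus not particular to genes of this region.

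**Figure D4:**
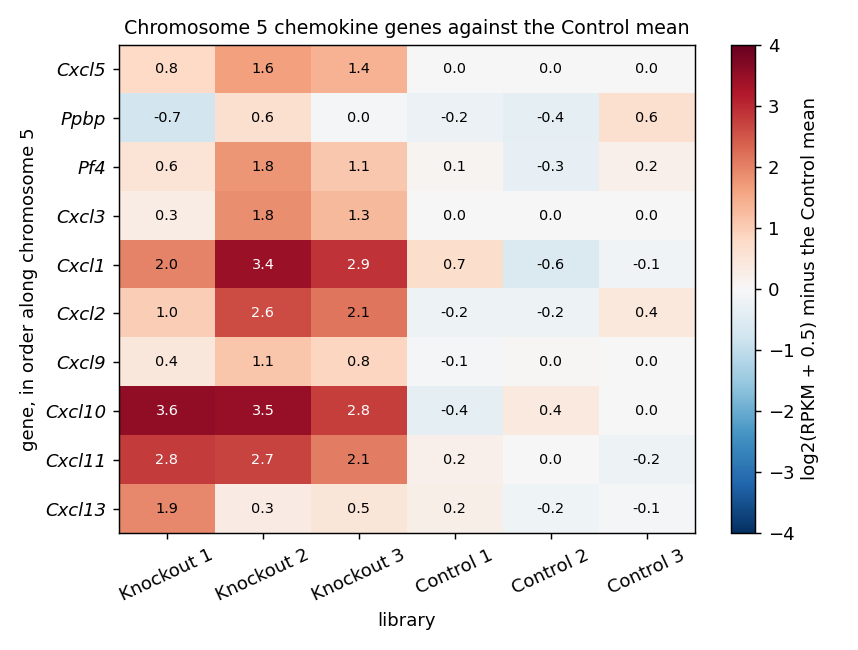
Chemokine genes of chromosome 5 in map order (rows, Cxcl15 with its single read left out) in each library (columns, Knockout on the left), coloured by log2(RPKM + 0.5) minus the mean of the Control libraries. Cxcl1 and Cxcl2 are highest in Knockout library 2 (3.44 and 2.61), and Cxcl10, Cxcl11 and Cxcl13 in Knockout library 1 (3.56, 2.80 and 1.93).

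Among 9 receptors for these ligands, 4 were tested and 1 was higher. Cx3cr1, the receptor of CX3CL1 on monocytes and macrophages, had 1.53, 6.17 and 4.51 RPKM in Knockout libraries 1 to 3, against 0.374, 0.451 and 0.226 RPKM in Control libraries 1 to 3. Within the Knockout group library 2 was the highest and library 1 the lowest. The summed macrophage markers, a list that includes Cx3cr1, had the same highest and lowest library. So did the neutrophil, parietal epithelial and T and NK cell markers. The ligand Cx3cl1 was highest in library 1 instead. The cell source of Cx3cr1 was not tested. The log2 change of Cx3cr1 was 2.27 (SE 0.42, limma adjusted p = 0.0151), and the call was kept under all 15 alternatives.

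The receptors of CXCL12 did not pass. Cxcr4 had 5.03, 6.62 and 8.15 RPKM in Knockout and 5.41, 5.12 and 2.77 RPKM in Control libraries (log2 change 0.55, limma adjusted p = 0.219). Ackr3, a scavenger of CXCL12, had 23.3, 33.0 and 40.1 RPKM in Knockout and 42.2, 59.9 and 37.7 RPKM in Control libraries (−0.53, adjusted p = 0.184). Both receptors overlapped between the groups. Cxcr5, the receptor of CXCL13, had 0.389, 0.535 and 0.440 RPKM in Knockout and 0.781, 0.662 and 0.992 RPKM in Control libraries, with no overlap (−0.45, adjusted p = 0.155). No receptor was lower by limma (1 at an unadjusted p under 0.05, 0 by voom), while quantile normalization called 1 lower, Cxcr5.

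The other receptors lay under the filter. Cxcr3, the receptor of CXCL9 and CXCL10, had 19, 23 and 53 reads in Knockout and 9, 8 and 7 reads in Control libraries, all Knockout counts being above all Control counts. Cxcr6, the receptor of CXCL16, had 30, 55 and 76 reads in Knockout and 30, 21 and 13 reads in Control libraries. T and NK cell markers, which include Cxcr3, summed to 4.69 to 9.57 RPKM in Knockout and 3.49 to 3.84 RPKM in Control libraries, and 0 of 4 tested were called by limma (3 higher unadjusted, 0 by voom), or 1 when Knockout replicate 1 was left out. Cxcr1 had at most 1 read in a library and Ackr1 at most 7.

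**Figure D5:**
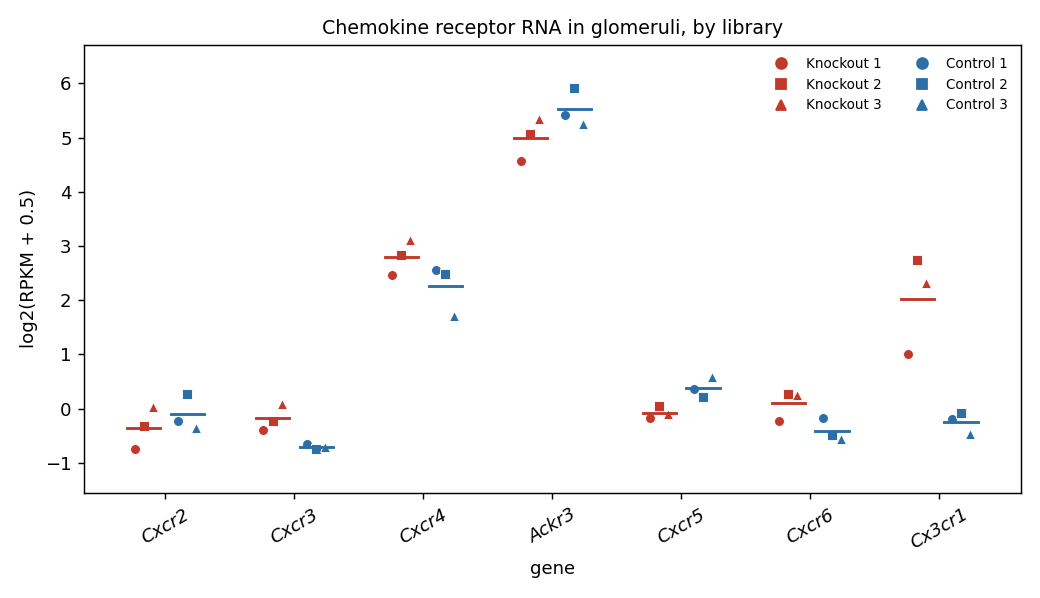
Level of 7 chemokine receptor genes in each library as log2(RPKM + 0.5), Knockout in red to the left of Control in blue, with lines at the group means. Cx3cr1 is apart between the groups at 1.53 to 6.17 RPKM in Knockout and 0.226 to 0.451 RPKM in Control libraries, while Cxcr2, Cxcr4 and Ackr3 overlap.

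Of 7 proteases that shed or cut chemokines, 6 were tested, 2 were higher and 0 lower by limma (1 lower unadjusted, 0 by voom). Ctss, the lysosomal cathepsin S, known to cleave CX3CL1, had 14.8, 42.3 and 31.6 RPKM in Knockout and 2.53, 4.58 and 2.47 RPKM in Control libraries (log2 change 2.95, limma adjusted p = 0.00550). Mmp12, a macrophage metalloelastase that trims CXC chemokines, had 1.99, 6.86 and 3.11 RPKM in Knockout and 0.0477, 0.00528 and 0.00712 RPKM in Control libraries (2.96, adjusted p = 0.00464). Both were highest in Knockout library 2, as were the summed macrophage, parietal epithelial, distal tubule and neutrophil markers, among other lists. The cell source of these proteases was not tested. The sheddases of CXCL16 and CX3CL1, Adam10 (0.42, adjusted p = 0.135) and Adam17 (0.01, adjusted p = 0.983), did not pass. Dpp4, which trims CXCL10 and CXCL12, had 31.5 to 62.9 RPKM in Knockout and 66.6 to 132 RPKM in Control libraries (−1.17, adjusted p = 0.0549), and it was called lower under median-ratio scaling and without Knockout replicate 3 or Control replicate 3.

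Genes upstream of the 2 inducible classes are set beside the share of all tested genes called higher, 9.98%. In the NF-kB and cytokine list, 4 of 11 tested genes were higher and 0 lower by limma. Unadjusted, 6 were higher and 0 lower. By voom, and also under quantile normalization, median-ratio scaling or no mean-variance trend, 3 were higher and 0 lower. Nfkbiz, an inducible nuclear partner of NF-kB, had 12.1, 20.3 and 16.6 RPKM in Knockout and 5.46, 4.14 and 5.58 RPKM in Control libraries (log2 change 1.58, limma adjusted p = 0.00580). Tnf, the cytokine, had 1.10, 1.44 and 1.61 RPKM in Knockout and 0.164, 0.461 and 0.202 RPKM in Control libraries (1.29, adjusted p = 0.0122, lost on leaving out Knockout replicate 2). Nfkb2 (0.90, adjusted p = 0.0246) and the adaptor Myd88 (0.41, adjusted p = 0.0458) also passed, the first losing its call under 3 and the second under 12 of 15 alternatives. Leaving out Knockout replicate 2 reduced the higher genes to 1, and leaving out Control replicate 1 or 2, or filtering at 2 RPKM, reduced them to 2. Il1b overlapped between the groups, with 3.08, 13.7 and 12.9 RPKM in Knockout and 7.29, 8.99 and 5.54 RPKM in Control libraries.

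In the interferon list, 2 of 10 tested genes were higher and 0 lower by limma, where 9.98% of all tested genes were called higher. Unadjusted, 4 were higher and 0 lower, and by voom 2 were higher and 0 lower. Irf7, an interferon regulatory factor, had 12.8, 13.6 and 17.1 RPKM in Knockout and 4.79, 6.66 and 6.45 RPKM in Control libraries (log2 change 1.21, limma adjusted p = 0.00723). Ifngr2, a chain of the interferon gamma receptor, had 31.4, 39.3 and 35.7 RPKM in Knockout and 17.7, 19.5 and 18.3 RPKM in Control libraries (0.92, adjusted p = 0.00592). Both kept their calls under all 15 alternatives. Ifng had 0, 1 and 7 reads in Knockout and 5, 1 and 0 reads in Control libraries, and Ifnb1 was listed at 0 in every library.

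The genes whose profile over the 6 libraries was most like each called chemokine were ranked by the root mean square difference of log2(RPKM + 0.5) after subtraction of the Control mean. For Cxcl16 these were Nrg1, Lgals1 and Nek6, at 0.0739 to 0.113, and for Cx3cl1 they were Slc38a1, Marcksl1 and Lgals3bp, at 0.0549 to 0.0931. Cxcl2 was most like Defb36, H2-Ea-ps and Atf3, at 0.203 to 0.229, and Cxcl1 most like Sytl2, Fst and Clec10a, at 0.288 to 0.320. Cxcl10 had less close neighbours, Prrg4, Krt20 and Il1rn, at 0.423 to 0.425. These 3 genes were highest in Knockout library 2, unlike Cxcl10. The 6 libraries share their groups in every such profile, so the likeness is a description only.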

How the data were processed

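Glomerular RNA was sequenced in 3 Knockout and 3 Control libraries. The authors deposited RPKM per gene. The authors used the mm10 genome with FastQC, STAR, featureCounts and edgeR, per the submitters' processing notes. Versions, settings, annotation and strand use were not given in the sources used here. Of 24062 rows, 27 with a date in place of a symbol (0.233% to 0.270% of reads) were left out of the tests. Reads were recovered by taking for each gene the unit that makes its values whole, within 0.001 read in all rows. Being whole is therefore no check of these reads. Their sums fell slightly short of the counted reads in every library, as with 45100402 against 45252080 in Knockout library 1. The recovered reads were used for the reads quoted and for voom. Reads carry no molecular identifiers, so read floors cover counting error only.

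A mean of 0.5 RPKM or more was required, and genes were fitted with limma 3.58.1 (R 4.3.3, mean-variance trend, two-sided) on log2(RPKM + 0.5), which understates changes of low genes, with Benjamini-Hochberg adjustment over 13912 genes and a threshold of 0.05. The fit was tested on simulated data. Alternatives covered pseudocount, filter, scaling, trend, voom, a replicate block and leaving out each library.

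Named genes are the 10 chemokines, Klf4, called genes of pathway lists, the leading and defining genes of marker lists and the nearest profiles. Overlapping genes of the chemokines and some genes that missed the threshold were named after their values were seen. The chemokines and lists were chosen with earlier results of these data known. Correlation of deviations between same-numbered libraries was 0.17, −0.22 and −0.46. With 3 libraries per group such values cannot decide whether the numbers pair them, and the main fit used no pairing. A single gene of the interferon list is not reported here.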

Additional observations from a re-analysis of the deposited data

How the results depend on the processing

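The 10 chemokine genes gave 4 to 6 higher and 0 lower over the 15 alternatives. Cxcl1, Cxcl10, Cxcl16 and Cx3cl1 kept their calls in all of them, Cxcl2 lost its call in 4, and Cxcl14 passed in 2 of 14. Cxcl5 and Cxcl9 were tested with no filter together with each other setting, a combination chosen after seeing the data, and lost their calls in 6 and 9 of 13. Klf4, never called, had a log2 change of −0.0098 under quantile normalization and −0.093 under median-ratio scaling, and −0.35 to 0.24 without 1 library. Over all genes 841 were higher with a filter at 2 RPKM, where fewer genes were tested. Under quantile normalization 849 were higher and 798 lower, and the cause was not tested. Leaving out 1 library gave 526 to 1536 higher and 127 to 619 lower, the lowest counts without Knockout replicate 2.

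The libraries share only a number. With the replicate number as a block, 632 genes were higher and 179 lower, the chemokines called higher numbered 5, and Cxcl5 and Cxcl9 tested without a filter lost their calls (adjusted p = 0.0651 and 0.0751). Count models planned for the recovered reads were not run, since the deposited values are RPKM. Depth limits Cxcl5 and Cxcl9 in Control libraries, where 0 to 11 reads were counted.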
